A study of Homo sapiens with 6 samples.

Results

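ZNF320 and ZNF468 are neighbouring zinc finger genes on human chromosome 19, described here with 8 zinc finger genes around them: ZNF816, ZNF28, ZNF816-ZNF321P, ZNF83, ZNF611, ZNF600, ZNF701 and ZNF808. The 10 genes were taken by name from a table of 24154 genes, in which all 10 were found. They were picked because earlier counts of ZNF320 and ZNF468 differed in opposite directions between the groups. Their differences between the groups are therefore a description, without a test.

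Poly(A) RNA was sequenced from cells labelled HCT116, an established line from a human colorectal carcinoma. Most epithelial markers of such cells were low or absent in all libraries, so the identity rests on the label. Cells of 3 libraries had been treated with siCPT2, an siRNA against CPT2, and those of the other 3 with NC, a negative control siRNA, each for 48 h. CPT2 encodes carnitine palmitoyltransferase 2, which works on long-chain acylcarnitines at the inner mitochondrial membrane. No label ties the replicate numbers 1 to 3 to separate cultures, so any p-value given here measures the spread between libraries only.

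Zinc finger genes of this kind arose by repeated duplication and stand in clusters. Most encode a KRAB domain, which recruits the corepressor TRIM28 and through it histone H3 lysine 9 methylation, followed by a row of C2H2 zinc fingers that reads DNA. Many of these proteins bind transposable elements and silence them. Their products are close relatives, and neighbouring genes can be annotated with shared exons, so that a short read does not always point to 1 gene.

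The KRAB A box of such genes is usually encoded by a single short exon, and that exon, of the same length in all 10 genes, is shown to let the relatedness of the genes be seen. Sequences are reference sequence of GENCODE 29 on GRCh38, 5′ to 3′ in the sense of each gene, and capitals mark the bases that differ from ZNF320.
ZNF320, chr19:52888127-52888253, minus strand: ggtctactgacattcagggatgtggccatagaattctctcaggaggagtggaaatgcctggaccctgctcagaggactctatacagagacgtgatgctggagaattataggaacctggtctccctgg
ZNF468, chr19:52849087-52849213, minus strand: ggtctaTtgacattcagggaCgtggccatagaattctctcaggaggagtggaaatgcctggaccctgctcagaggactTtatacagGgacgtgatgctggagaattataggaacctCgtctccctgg
ZNF28, chr19:52808007-52808133, minus strand: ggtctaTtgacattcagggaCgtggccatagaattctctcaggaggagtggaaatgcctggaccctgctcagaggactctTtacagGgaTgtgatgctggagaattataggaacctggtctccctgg
ZNF816, chr19:52952751-52952877, minus strand: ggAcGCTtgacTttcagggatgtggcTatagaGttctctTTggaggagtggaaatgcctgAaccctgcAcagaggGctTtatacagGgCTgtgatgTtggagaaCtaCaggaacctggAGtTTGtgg
ZNF611, chr19:52714015-52714141, minus strand: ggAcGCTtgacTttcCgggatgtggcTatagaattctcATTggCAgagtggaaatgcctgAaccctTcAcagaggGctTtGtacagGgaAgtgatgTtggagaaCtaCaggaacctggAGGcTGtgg
ZNF600, chr19:52774575-52774701, minus strand: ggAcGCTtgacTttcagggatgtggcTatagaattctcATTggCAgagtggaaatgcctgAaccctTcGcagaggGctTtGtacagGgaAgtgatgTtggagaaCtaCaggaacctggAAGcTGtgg
ZNF808, chr19:52547512-52547638, plus strand: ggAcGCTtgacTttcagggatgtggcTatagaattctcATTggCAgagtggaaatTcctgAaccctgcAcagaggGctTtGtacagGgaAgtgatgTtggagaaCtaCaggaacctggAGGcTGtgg

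The ZNF701 exon at chr19:52575895-52576021 on the plus strand had 0 differences from the ZNF320 exon, although the genes lie on opposite strands. ZNF468 and ZNF28 differed from ZNF320 at 5 bases each, and ZNF83 at 3. ZNF816 differed at 24 bases, ZNF600 and ZNF808 at 27 each and ZNF611 at 28. The exon therefore sorted the genes into a set of ZNF320, ZNF468, ZNF28, ZNF83 and ZNF701, with at most 6 differences between any pair, and a set of ZNF611, ZNF600 and ZNF808, with at most 4. ZNF816 was 10 to 12 bases from the second set. ZNF816-ZNF321P, a readthrough gene that joins ZNF816 to the pseudogene ZNF321P, uses the very exon of ZNF816.

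**Figure D1:**
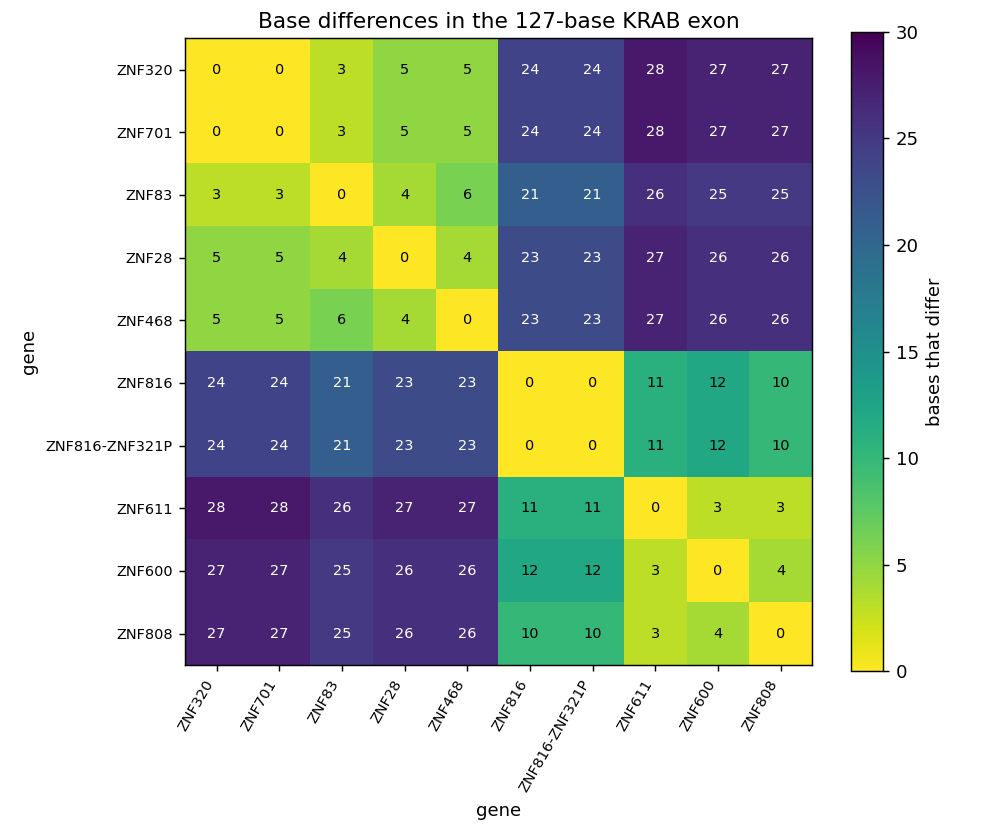
Number of bases that differ in the KRAB exon between each pair of the 10 genes, both axes listing the genes and colour giving the number of bases. ZNF320 and ZNF701 differ at 0 bases, whereas ZNF320 and ZNF611 differ at 28.

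The longest annotated coding sequences gave proteins of 233 to 903 residues. ZNF808, whose protein binds MER11 elements, had the most C2H2 fingers, 23 in 903 residues. ZNF600 had 18 fingers, ZNF816 and ZNF28 had 15 each, ZNF83 had 14 and ZNF611, known to bind SVA retrotransposons, had 13. ZNF320 and ZNF468 had 11 fingers each, in 509 and 522 residues. ZNF701 had 7 fingers, and the readthrough ZNF816-ZNF321P had 0. In ZNF83 the longest coding sequence did not include the KRAB exon.

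The gene models of ZNF320 and ZNF468 overlap on the minus strand. In GENCODE 29, ZNF320 (ENSG00000182986) spans chr19:52863790-52897693 and ZNF468 (ENSG00000204604) spans chr19:52838008-52890375. Their exons share 6021 bases, which are 72.5% of the exon bases of ZNF320 and 53.0% of those of ZNF468. Nearly all of this comes from 1 transcript of ZNF468 that lies inside ZNF320 (ENST00000391781, 3 exons and 6074 bases), called the upstream ZNF468 transcript here. Of its bases 6019, or 99.1%, also belong to the long ZNF320 transcript (ENST00000595635, 8 exons and 6448 bases). The coding sequences of these transcripts are identical over all 1527 bases. The upstream ZNF468 transcript contains the very KRAB exon printed above for ZNF320, at chr19:52888127-52888253.

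The longest ZNF468 transcript with a coding sequence of its own (ENST00000595646, the downstream ZNF468 transcript) has 4 exons, 4407 bases and 1566 coding bases, and shares 0 exon bases with the long ZNF320 transcript. Its 5′ end lies 32.8 kb from that of the upstream ZNF468 transcript. The 5′ ends of the long ZNF320 and the upstream ZNF468 transcript are 7.19 kb apart. The other 12 ZNF320 transcripts are 502 to 754 bases long. RefSeq on GRCh38.p14 separates the genes, with ZNF468 at chr19:52838010-52857619 and ZNF320 at chr19:52859491-52904320. In the authors' deposited table, the row of ZNF468 carried the symbol ZNF320 in the column of matches to a protein database.

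**Figure D2:**
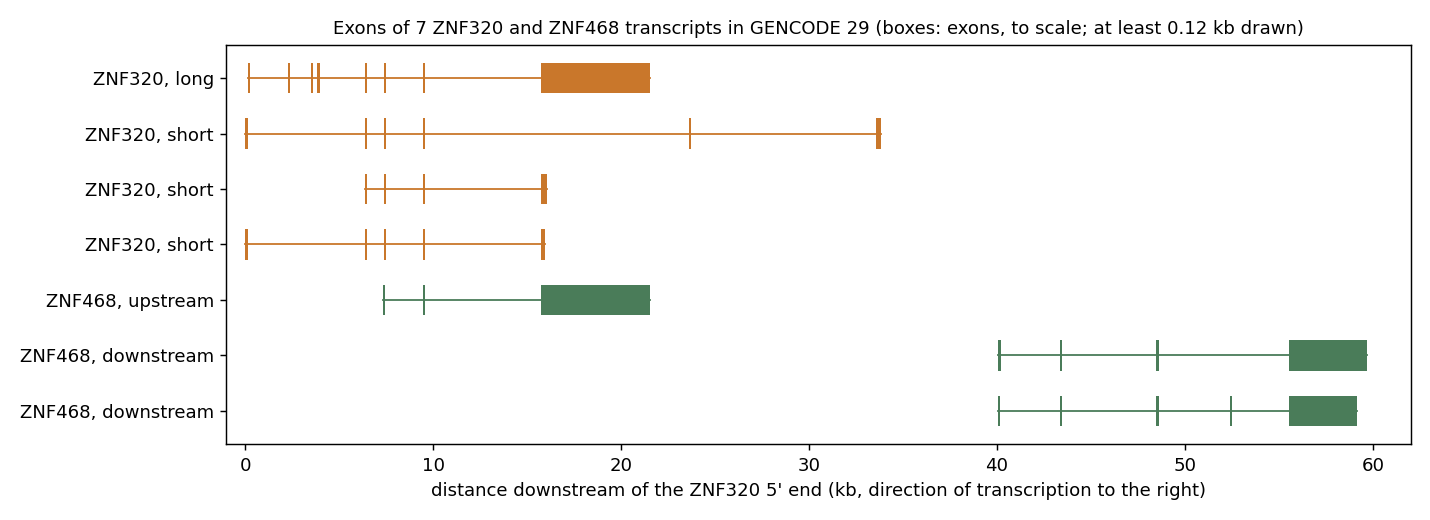
Exons of 4 ZNF320 and 3 ZNF468 transcripts of GENCODE 29, with boxes for exons and lines for introns, against the distance in kb downstream of the 5′ end of ZNF320. The upstream ZNF468 transcript repeats the last exons of the long ZNF320 transcript, while both downstream ZNF468 transcripts drawn lie beyond it.

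Promoter sequence was compared because ZNF320 and ZNF468 have separate start sites in RefSeq. The windows below are from RefSeq on GRCh38.p14, 5′ to 3′ in the sense of the gene. They run from 250 bases before to 50 after an annotated start. The ZNF320 windows used here lie inside the RefSeq span of the gene, whose 5′ end is at chr19:52904320. They are therefore not at its outermost start. Capitals mark CCGGAAG, letters that contain the core bound by ETS factors.
ZNF320, chr19:52897645-52897944, minus strand: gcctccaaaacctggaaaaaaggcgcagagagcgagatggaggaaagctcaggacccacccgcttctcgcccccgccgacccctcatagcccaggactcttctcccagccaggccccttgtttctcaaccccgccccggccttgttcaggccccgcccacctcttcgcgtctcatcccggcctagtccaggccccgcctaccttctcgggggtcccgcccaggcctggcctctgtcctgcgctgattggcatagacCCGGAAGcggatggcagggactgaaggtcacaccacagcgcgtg
ZNF468, chr19:52857570-52857869, minus strand: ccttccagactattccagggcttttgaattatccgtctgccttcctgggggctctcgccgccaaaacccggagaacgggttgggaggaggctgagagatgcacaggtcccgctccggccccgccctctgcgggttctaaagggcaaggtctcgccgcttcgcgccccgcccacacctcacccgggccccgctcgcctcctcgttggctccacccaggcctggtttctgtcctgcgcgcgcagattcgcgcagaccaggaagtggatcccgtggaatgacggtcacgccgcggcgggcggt
ZNF816, chr19:52962832-52963131, minus strand: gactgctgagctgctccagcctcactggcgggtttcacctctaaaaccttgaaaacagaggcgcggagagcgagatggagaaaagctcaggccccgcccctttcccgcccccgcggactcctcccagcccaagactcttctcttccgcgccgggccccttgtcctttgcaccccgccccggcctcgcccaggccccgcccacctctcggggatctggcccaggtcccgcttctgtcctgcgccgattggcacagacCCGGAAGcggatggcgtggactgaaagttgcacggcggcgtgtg

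RefSeq windows were found for 8 of the 10 genes, with 10 different windows among them. CCGGAAG, on either strand, was in 7 of the 10 windows and in 10.2% of 34796 promoter windows of the same length. The 7 included those of ZNF320 and ZNF816 but not that of ZNF468. Only exact matches were counted. Near its end the ZNF468 window reads caggaag where that of ZNF320 reads CCGGAAG, and both hold GGAA. The missing match therefore does not mean that ZNF468 lacks the ETS core. GGGCGG, the GC box, was in 9 of 10 windows and in 44.9% of all. CTGCGC, taken for its recurrence in these windows, was in 9 of 10 and in 25.8% of all. The ZNF320 windows overlap by 241 bases and hold the same CCGGAAG. With 1 window for ZNF320, CCGGAAG was in 6 of 9, and GGGCGG and CTGCGC in 8 of 9 each. These are related sequences, and a match is no evidence of binding.

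ZNF320 had far more counts in siCPT2 libraries than in NC libraries. Its counts were 1010, 1126 and 1057 in siCPT2 replicates 1 to 3, against 73, 76 and 66 in the NC replicates. All 3 siCPT2 libraries lay above every NC library, and within each group the counts were close together. Scaled to library size with TMM factors (CPM), ZNF320 averaged 38.8 ± 2.19 in siCPT2 and 2.33 ± 0.198 in NC (SD, n = 3 each), a ratio of 16.6 and a fitted log2 fold change of 4.05 (SE 0.19).

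ZNF468 showed the opposite pattern. Its counts were 128, 430 and 277 in siCPT2 replicates 1 to 3, against 1653, 1806 and 1803 in the NC replicates. All 3 siCPT2 libraries lay below every NC library, and they varied more among themselves than the NC libraries did. ZNF468 averaged 9.96 ± 5.15 CPM in siCPT2 and 57.0 ± 1.78 CPM in NC (SD, n = 3 each), with a log2 fold change of -2.52 (SE 0.35).

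Summed, the pair differed much less between the groups. The counts of ZNF320 with ZNF468 were 1138, 1556 and 1334 in siCPT2 and 1726, 1882 and 1869 in NC. The siCPT2 libraries were still all below the NC libraries. The sum was 48.7 ± 5.87 CPM in siCPT2 and 59.4 ± 1.76 CPM in NC (SD, n = 3 each), with a log2 fold change of -0.29 (SE 0.15). The sign of this difference depended on the scaling: with offsets for transcript GC content and length it was 0.14 (SE 0.14).

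The share of the pair's counts listed under ZNF320 separated the groups. It was 88.8% in siCPT2 replicate 1 (exact 95% binomial interval 86.8% to 90.5%), 72.4% in replicate 2 (70.1% to 74.6%) and 79.2% in replicate 3 (77.0% to 81.4%). In NC it was 4.23% (3.33% to 5.29%), 4.04% (3.19% to 5.03%) and 3.53% (2.74% to 4.47%). The intervals cover counting error only. The 3 siCPT2 shares differed from each other by more than their intervals, and the 3 NC shares did not.

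**Figure D3:**
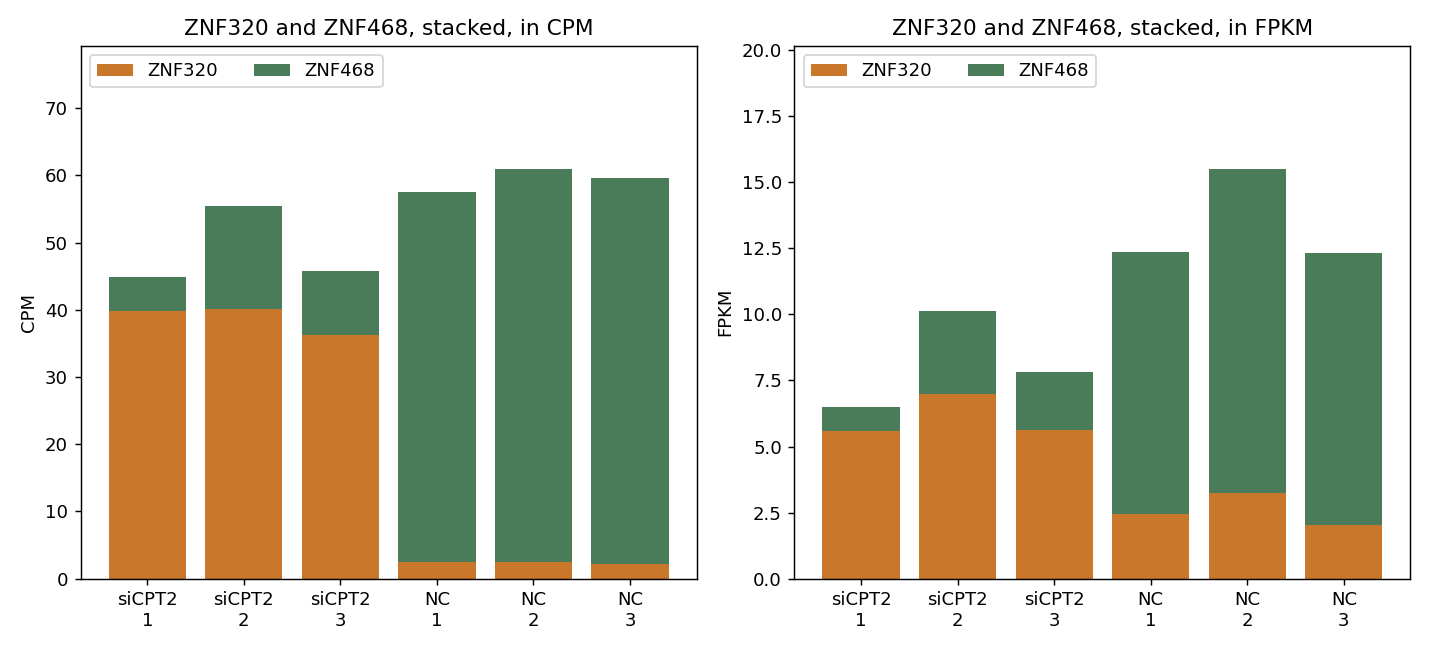
Levels of ZNF320 and ZNF468 stacked in each library, in CPM (left) and in the authors' FPKM (right), with the 3 siCPT2 libraries left of the 3 NC libraries. In CPM most of each bar is ZNF320 in siCPT2 and ZNF468 in NC, while the bar heights, 44.9 to 55.5 in siCPT2 and 57.5 to 61.0 in NC, differ less.

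The authors' FPKM, which divide by transcript length, gave a smaller difference for ZNF320. Its FPKM were 5.58, 6.98 and 5.64 in siCPT2 and 2.45, 3.24 and 2.01 in NC, so the groups did not overlap, but the means differed 2.36-fold against 16.6-fold in CPM. The FPKM of ZNF468 were 0.932, 3.16 and 2.17 in siCPT2 and 9.93, 12.3 and 10.3 in NC. The pair's summed FPKM were 6.51, 10.1 and 7.81 in siCPT2 and 12.4, 15.5 and 12.3 in NC, a ratio of 0.608 between the means. In FPKM, ZNF320 held 85.7%, 68.9% and 72.2% of the pair in siCPT2 and 19.8%, 20.9% and 16.3% in NC.

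Counts and FPKM of 1 gene and library together give a length, called implied length here: the count divided by the FPKM and by a constant of the library. The constant was taken from 503 protein-coding genes with 1 annotated transcript and at least 100 counts in each library. For 90% of those genes the implied length was 0.999 to 1.004 times the annotated length. For a gene with several transcripts it moves with the transcripts to which reads were assigned.

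The implied length of ZNF320 was 5.89, 5.43 and 6.11 kb in siCPT2 replicates 1 to 3, against 0.959, 0.760 and 1.04 kb in the NC replicates. The siCPT2 values were near the 6448 bases of the long transcript, and the NC values were nearer to the 502 to 754 bases of the short transcripts. The group means differed 6.31-fold. ZNF320 was the only 1 of the 10 genes whose group means differed over 2-fold, which 3 of 14139 genes with at least 10 counts in each library did (0.0212%). The other 2, named after their values were seen, were TTC7B and AHNAK2, both shorter in siCPT2. Implied length is computed from the counts on which ZNF320 was picked, so nothing is read from the share of 0.0212%.

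For ZNF468 the implied length was 4.47, 4.58 and 4.16 kb in siCPT2 and 5.35, 4.77 and 5.56 kb in NC. All siCPT2 values were lower, with a ratio of 0.842 between the group means. How many genes separate in this way was not counted. The groups separated for ZNF816 too, at 2.54 to 2.71 kb in siCPT2 and 2.47 to 2.53 kb in NC. The siCPT2 values were near the 4407 bases of the downstream transcript, and the NC values lay between that length and the 6074 bases of the upstream transcript.

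If reads had been assigned to annotated GENCODE 29 transcripts alone, these lengths bound the split. The long ZNF320 transcript would have received 997 to 1002 of the ZNF320 counts in siCPT2 replicate 1, 1098 to 1108 in replicate 2 and 1049 to 1052 in replicate 3. In NC it would have received 17.6 to 37.7 counts in replicate 1, 0.651 to 27.96 in replicate 2 and 20.8 to 37.2 in replicate 3. The short ZNF320 transcripts would have received 4.90 to 28.03 counts in a siCPT2 library and 28.8 to 75.3 in an NC library. Under the same assumption the upstream ZNF468 transcript would have received at least 4.83%, 14.1% and 0% of the ZNF468 counts in siCPT2, and at least 64.3%, 28.01% and 75.5% in NC. In counts that is at least 6.18, 60.6 and 0 in siCPT2 replicates 1 to 3, and at least 1063, 506 and 1361 in NC replicates 1 to 3. Whether reads of the shared exons were placed on 1 gene model or the other was not tested, since no reads were used.

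**Figure D4:**
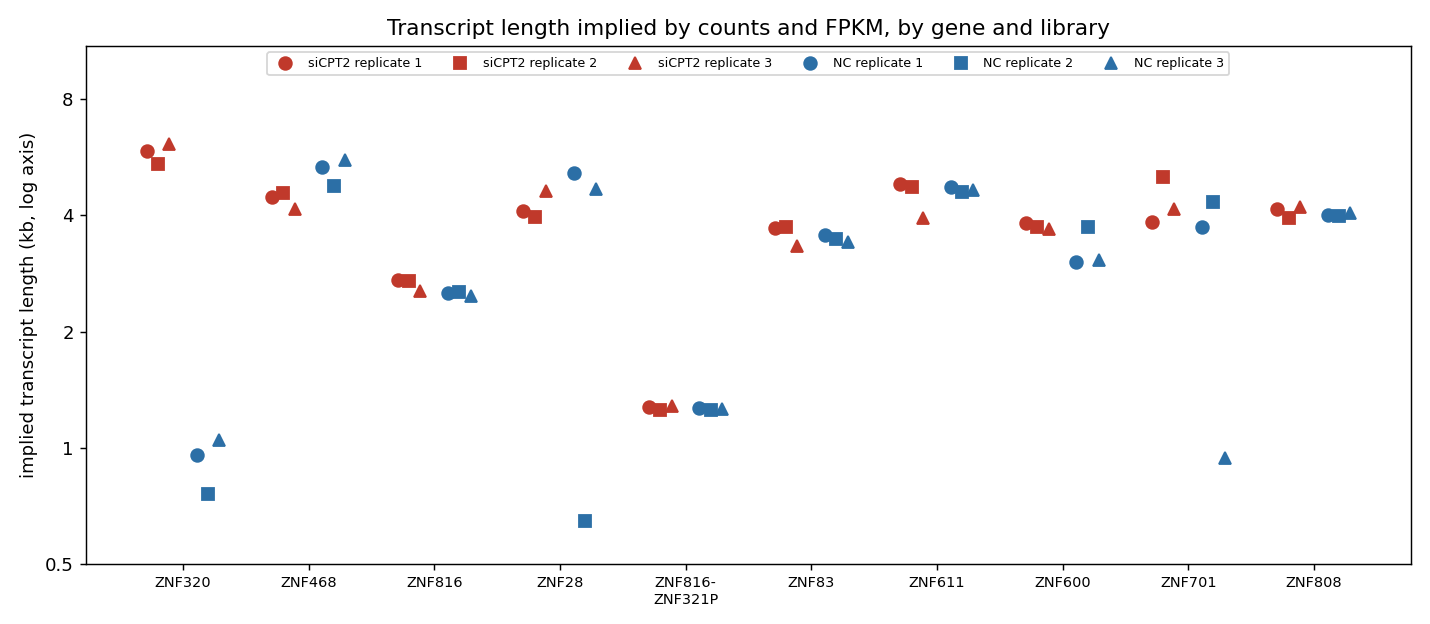
Transcript length in kb, on a log axis, implied by the counts and FPKM of each gene in each library, siCPT2 left of NC. ZNF320 lies at 5.43 to 6.11 kb in siCPT2 and at 0.760 to 1.04 kb in NC, and single NC libraries stand low for ZNF28 (replicate 2) and ZNF701 (replicate 3).

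ZNF28 and ZNF600 varied most among the NC libraries. The counts of ZNF28 were 86, 301 and 219 in siCPT2 and 327, 20 and 334 in NC. NC replicate 2 was far below the other NC libraries and below every siCPT2 library. The counts of ZNF600 were 159, 245 and 202 in siCPT2 and 39, 272 and 24 in NC, with NC replicate 2 the highest of all 6 libraries. ZNF600 held 64.9%, 44.9% and 48.0% of the counts of this pair in siCPT2 and 10.7%, 93.2% and 6.70% in NC. The pair's summed counts were 245, 546 and 421 in siCPT2 and 366, 292 and 358 in NC, and the groups overlapped.

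The implied length of ZNF28 was 4.11, 3.97 and 4.62 kb in siCPT2 and 5.14, 0.644 and 4.67 kb in NC. NC replicate 2, with its 20 counts, was the short one. For ZNF600 it was 3.81, 3.73 and 3.70 kb in siCPT2 and 3.03, 3.73 and 3.07 kb in NC, where NC replicate 2 was at the level of the siCPT2 libraries. In GENCODE 29 the exons of ZNF28 (chr19:52797409-52857600) and ZNF600 (chr19:52749942-52786807) do not overlap. The RefSeq span of ZNF600, chr19:52764164-52833645, contains that of ZNF28, chr19:52797408-52821633.

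The log2 fold changes of both genes depended on single libraries. ZNF28 averaged 7.21 ± 3.68 CPM in siCPT2 and 7.40 ± 5.85 CPM in NC (SD, n = 3 each), and its log2 fold change was -0.03 (SE 0.85). It was -0.58 without NC replicate 2 and -0.44 without siCPT2 replicate 2, and 0.35, 0.32 and 0.29 without NC replicate 1, NC replicate 3 and siCPT2 replicate 1. It was -0.06 without siCPT2 replicate 3. ZNF600 averaged 7.31 ± 1.27 CPM in siCPT2 and 3.63 ± 4.50 CPM in NC (SD, n = 3 each), and its log2 fold change was 1.01 (SE 0.75). Leaving out NC replicate 2 gave 2.82. Leaving out NC replicate 1 gave 0.61, and NC replicate 3 gave 0.53. The sign for ZNF28 turned in 6 of 17 alternative settings, and that for ZNF600 in 0 of 17.

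ZNF701 had 1 low NC library as well. Its counts were 129, 145 and 212 in siCPT2 and 179, 235 and 46 in NC. NC replicate 3 was below the other 5 libraries, and the groups overlapped. Its FPKM, in contrast, were 1.09, 0.972 and 1.66 in siCPT2 and 1.54, 1.76 and 1.56 in NC, so that NC replicate 3 was level with the other NC libraries. The implied length of ZNF701 was 3.84, 5.02 and 4.15 kb in siCPT2 and 3.73, 4.34 and 0.940 kb in NC. The log2 fold change of the counts was 0.22 (SE 0.49). It was -0.22 without NC replicate 3, 0.03 without siCPT2 replicate 3, and 0.65 and 0.36 without NC replicates 2 and 1. Its sign turned in 3 of 17 settings, which were the fit without NC replicate 3 and both fits on FPKM.

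ZNF808, which lies on the plus strand with ZNF701 and shares 712 exon bases with it, had 194, 194 and 247 counts in siCPT2 and 222, 282 and 237 in NC. Its libraries were close together, the groups overlapped, and the implied length stayed between 3.93 and 4.20 kb. It averaged 7.68 ± 0.774 CPM in siCPT2 and 8.03 ± 0.962 CPM in NC (SD, n = 3 each), with a log2 fold change of -0.06 (SE 0.19), whose sign turned in 3 of 17 settings. With 1 library left out it ranged from -0.14 (without siCPT2 replicate 3) to 0.04 (without NC replicate 2).

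ZNF320, ZNF28 and ZNF701 were the 3 of 10 genes whose highest implied length was over 2 times the lowest. Over all 14139 genes 197, or 1.39%, were. The short lengths came with few counts: 20 for ZNF28 in NC replicate 2, 46 for ZNF701 in NC replicate 3 and 66 to 76 for ZNF320 in NC. The share over all genes was not matched for counts or number of transcripts, and ZNF320 was picked on this contrast. Nothing is therefore read from 3 of 10. In the other 7 genes the highest was at most 1.34 times the lowest. ZNF816-ZNF321P, with 1 annotated transcript of 1252 bases, stayed at 1.25 to 1.28 kb.

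ZNF83 had the highest counts among the 8 genes around the pair. Its counts were 467, 791 and 572 in siCPT2 and 576, 808 and 758 in NC, and the groups overlapped. It averaged 22.1 ± 5.33 CPM in siCPT2 and 23.2 ± 3.60 CPM in NC (SD, n = 3 each), with a log2 fold change of -0.07 (SE 0.22), whose sign turned in 4 of 17 settings. With 1 library left out it ranged from -0.29 (without siCPT2 replicate 2) to 0.03 (without siCPT2 replicate 1 or NC replicate 2). None of its 9014 windows of 100 exon bases occurred in another gene.

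ZNF611 had 96, 186 and 147 counts in siCPT2 and 278, 200 and 206 in NC. The raw counts did not overlap, but in CPM siCPT2 replicate 2, at 6.63, lay above NC replicates 2 and 3, at 6.48 and 6.57. The log2 fold change was -0.53 (SE 0.27) and its sign held in all 17 settings, from -0.76 to -0.21. It was -0.34 without NC replicate 1.

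ZNF816 had 54, 154 and 121 counts in siCPT2 and 162, 183 and 128 in NC, with siCPT2 replicate 1 the lowest and the groups overlapping. Its log2 fold change was -0.39 (SE 0.34), but -0.10 without siCPT2 replicate 1 and -0.71 without siCPT2 replicate 2. ZNF816-ZNF321P had 36, 33 and 29 counts in siCPT2 and 38, 57 and 42 in NC, too few for close comparison. Its log2 fold change was -0.31 (SE 0.32), but -0.12 without NC replicate 2 and -0.19 without siCPT2 replicate 3. Of its 100-base windows, 91.8% occurred in other gene models, mostly ZNF321P. Such windows made up 71.6% in ZNF320, 52.0% in ZNF468, 13.2% in ZNF808, 8.63% in ZNF701 and 5.89% in ZNF816, and fewer in the remaining 4 genes.

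**Figure D5:**
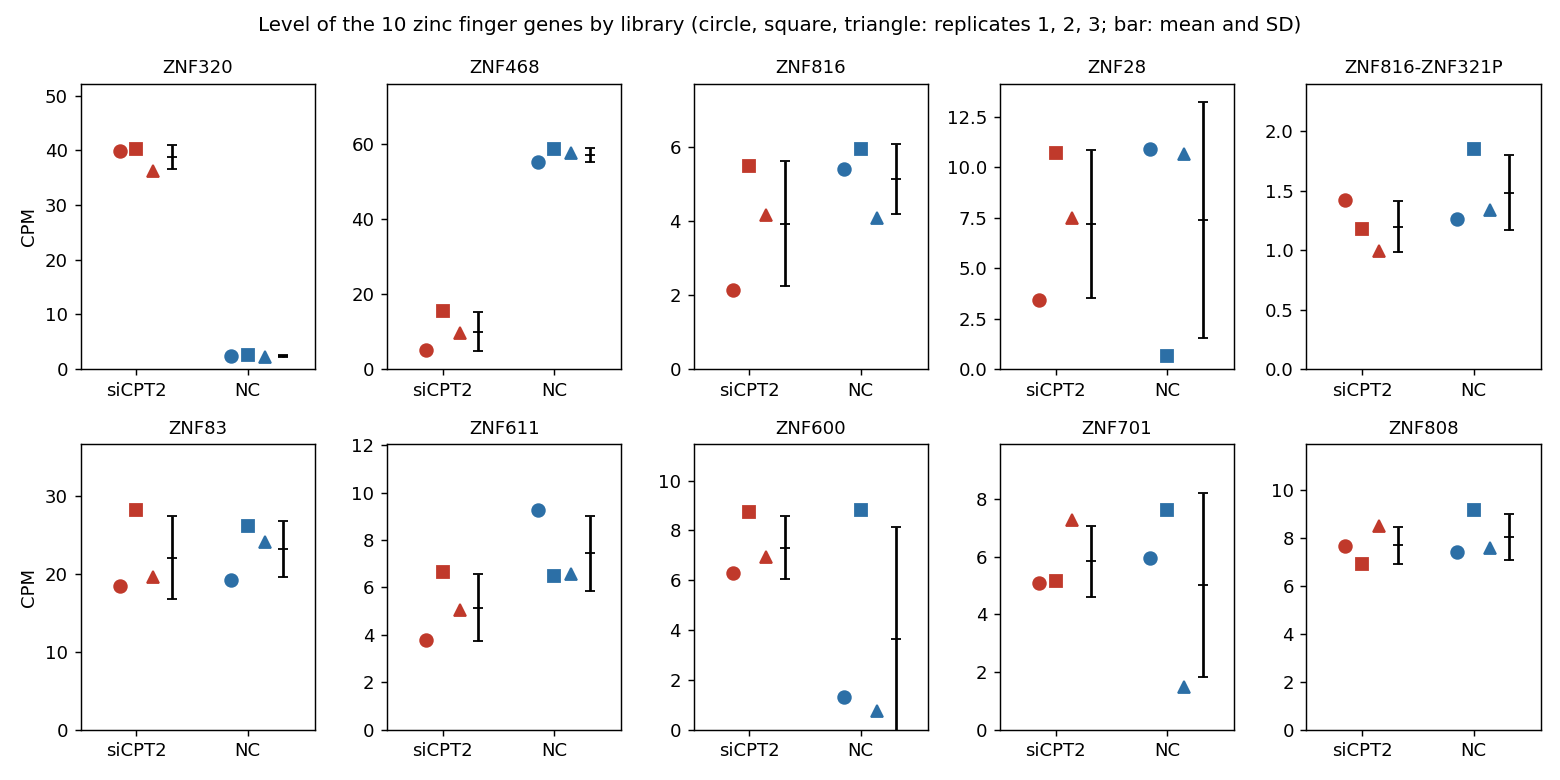
CPM of the 10 genes in each library, each panel with its own linear axis from 0, siCPT2 left of NC, symbols for replicates 1 to 3 and a bar for the mean and SD (the ZNF600 NC bar continues below 0). The groups do not overlap for ZNF320 and ZNF468 and overlap for the other 8.

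By length-scaled level (FPKM), the order of the genes differed between the groups. In siCPT2, ZNF320 (6.07 ± 0.792) and ZNF83 (5.61 ± 1.51) came first and overlapped, followed by ZNF468 (2.09 ± 1.11). In NC, ZNF468 came first (10.8 ± 1.25), followed by ZNF83 (6.60 ± 1.25) and ZNF320 (2.57 ± 0.625), none of which overlapped (SD, n = 3 each). Every other gene averaged between 0.849 and 2.02 FPKM in either group, and neighbours in that order overlapped.

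Over all 10 genes, counts summed to 2359, 3605 and 3083 in siCPT2 and 3547, 3939 and 3644 in NC. The sum was lowest in siCPT2 replicate 1, and the groups overlapped, at 93.2 to 128.6 CPM in siCPT2 and 116.2 to 127.6 CPM in NC. The means were 109.1 ± 17.9 CPM in siCPT2 and 120.7 ± 6.10 CPM in NC (SD, n = 3 each), with a log2 fold change of -0.15 (SE 0.16). It was -0.05 without siCPT2 replicate 1 and -0.29 without siCPT2 replicate 2. Summed FPKM were 17.5, 28.8 and 23.8 in siCPT2 and 28.3, 35.7 and 29.5 in NC, a ratio of 0.75 between the means. The 8 genes without ZNF320 and ZNF468 summed to 1221, 2049 and 1749 counts in siCPT2 and 1821, 2057 and 1775 in NC.

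All 10 genes passed the filter on low counts. By edgeR, 1 of 10 was called at an adjusted p under 0.05 (ZNF320), against 0.0131% of 15302 genes. The authors' deposited table called 2 of 10 (ZNF320 up with a log2 fold change of 4.06 and ZNF468 down with -2.52), against 4.15% of 13635 genes with a p-value. Per its header, that call takes an unadjusted p under 0.01 and a fold of 1.5. The CPM of the groups did not overlap for 2 of 10, against 24.4% of tested genes. The FPKM did not overlap for 4 of 10 (ZNF320, ZNF468, ZNF816-ZNF321P and ZNF611), against 24.3%. Since ZNF320 and ZNF468 were picked on this contrast, nothing is read from these counts. The median log2 fold change was -0.07 over the 10 genes and 0.01 over all tested genes, with 3 genes higher and 7 lower in siCPT2.

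The transcripts of the 10 genes are AT-rich, with 39.6% to 46.2% GC, and genes of that composition were lower in siCPT2 replicate 1. Among 3495 other tested genes in this range, the median log2 difference from the NC mean was -0.59, -0.04 and -0.19 in siCPT2 replicates 1 to 3, against -0.04, 0.09 and -0.05 in the NC replicates. The median of the 8 genes around the pair was -0.19, 0.20 and -0.07 in siCPT2 and -0.01, 0.21 and -0.14 in NC. The part of library composition in the lower sums of siCPT2 replicate 1 was not tested.

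The corepressor machinery through which KRAB proteins act was also examined, in a list of 30 names, of which 28 genes were tested. By edgeR 0 of 28 were called at an adjusted p under 0.05, against 0.0131% of all tested genes. At an unadjusted p under 0.05, 1 was higher and 1 lower in siCPT2, or 2 of 28, against 14.5% of the 15302 tested genes at that threshold. DESeq2 called 0, against 20 of 20300 genes. The median log2 fold change was -0.13 against 0.01 over all genes, with 8 higher and 20 lower. TRIM28, the corepressor bound by KRAB domains, had 537 ± 96.0 CPM in siCPT2 and 421 ± 44.4 CPM in NC (log2 fold change 0.35, SE 0.17, edgeR adjusted p = 0.338). EHMT2, an H3 lysine 9 methyltransferase, had 156.0 ± 54.1 CPM in siCPT2 and 101.8 ± 7.88 CPM in NC (log2 fold change 0.62, SE 0.23, edgeR adjusted p = 0.338). NSD2, an H3 lysine 36 methyltransferase on that list, had 93.6 ± 23.8 CPM in siCPT2 and 150.5 ± 4.61 CPM in NC (log2 fold change -0.69, SE 0.19, edgeR adjusted p = 0.338).

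Of 34 other zinc finger genes listed for the same stretch of chromosome 19, 30 were in the table, 8 of them at 0 counts in all libraries, and 19 were tested. By edgeR 0 of 19 were called, against 0.0131% of all tested genes, and 0 had an unadjusted p under 0.05, against 14.5%. DESeq2 called 0, against 20 of 20300 genes. Of the 19, 2 were higher and 17 lower in siCPT2, with a median log2 fold change of -0.16. Genes of similar composition were mostly lower too. Of the 19, 14 lay in the range of 39.6% to 46.2% GC, and the 3495 genes in that range had a median of -0.25, with 78.4% of them lower in siCPT2. Counts of the listed zinc finger genes summed to 192 to 297 CPM in siCPT2 and 248 to 295 CPM in NC. The smallest p-values belonged to ZNF841, ZNF175 and ZNF761, with log2 fold changes of -0.35 (SE 0.18), -0.58 (SE 0.31) and -0.41 (SE 0.22) and edgeR adjusted p of 0.347, 0.349 and 0.352. AC010487.3, whose model overlaps ZNF320 and ZNF468, was listed at 0 in all 6 libraries.

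Across the 6 libraries, log2 CPM of ZNF320 was most alike in EEFSEC (Pearson's r = 0.988), B4GALNT1 (0.986) and WDR1 (0.984) among 13577 genes with a mean of at least 1 CPM. For ZNF468 the most alike were KDM4B (0.997), S100PBP (0.995) and HERPUD1 (0.995). For WDR1, 1 new locus without a symbol ranked higher. These values describe 6 libraries in 2 groups and mostly restate the group difference.

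CPT2, the siRNA target, had 492, 597 and 553 counts in siCPT2 and 709, 881 and 911 in NC, all lower in siCPT2 (log2 fold change -0.44, SE 0.17, edgeR adjusted p = 0.338). Libraries held 28353790 to 29449380 counts. On the first principal component, with 53.2% of the variance, siCPT2 replicate 1 scored 76.6 and the other libraries -44.6 to 16.03. Of 6 epithelial markers looked for, KRT8 (1003 to 1432 CPM in siCPT2, 938 to 1042 in NC) and KRT18 (705 to 1220 in siCPT2, 609 to 763 in NC) were high. EPCAM and CDH1 were at most 4.31 CPM, VIL1 had at most 3 counts, and CDX2 was listed at 0 throughout. Of markers of other cells, COL1A1 had 76.2 to 127.8 CPM in siCPT2 and 57.0 to 76.6 in NC, and PTPRC, PECAM1 and COL1A2 were at most 0.891 CPM.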

How the data were processed

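The authors deposited counts and FPKM per gene and library, with their DESeq2 comparison beside them, per the file headers. GRCh38 as the build, and StringTie, HISAT2, Bowtie2, TopHat2, edgeR and DESeq2 as tools, stand in the submitters' processing notes with no roles. How reads were assigned where genes overlap, or by strand, was not given in the sources used here. After 17 stray lines were left out, 24154 genes remained, 4180 of them new loci without a symbol (5.32% to 7.18% of the counts of a library).

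Counts were fitted in R 4.3.3 with edgeR 4.0.16 (filterByExpr, 15302 genes; TMM; robust quasi-likelihood F-test), with p-values adjusted over all genes by Benjamini-Hochberg. Fold changes are siCPT2 over NC. In separate fits, the rows of the 10 genes, or of ZNF320 and ZNF468, were replaced by 1 row with their sum. Gene models, lengths and exon sequences came from GENCODE 29, and promoters and gene spans from RefSeq on GRCh38.p14. Exact binomial intervals used counts. Alternatives used DESeq2 1.42.0 and limma 3.58.1. The members, the lists and the tests were chosen with earlier results of these data known. All 10 members are named, with up to 3 genes of each list with the smallest p-values and the 3 genes most correlated with ZNF320 and ZNF468. Libraries were grouped by the siRNA in their titles and held 28353790 to 29449380 counts.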

Additional observations from a re-analysis of the deposited data

How the results depend on the processing

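The log2 fold change of ZNF320 kept its sign in all 17 alternatives, from 0.99 on log2(FPKM + 1) to 4.49 with GC and length offsets, and that of ZNF468 did too, from -2.97 to -2.004. ZNF320 was called in every count fit of single genes. ZNF468 was called as well by DESeq2, without a filter, with GC and length offsets, with the replicate block, and without siCPT2 replicate 1 or 2, and neither was called on FPKM. Both genes were picked on this contrast, so these calls are a description and support nothing. Against 2 genes called by edgeR, DESeq2 called 20, limma-voom 1, limma-trend on log2(FPKM + 1) 0 (2055 genes at an unadjusted p under 0.05), and the sum of genes with overlapping exons 0 (2194 genes). Leaving out 1 library gave 1 to 5 (1 without NC replicate 1 or NC replicate 3, 5 without siCPT2 replicate 2). With the replicate block 633 genes and 2 KRAB corepressor genes were called, where the fit without it called 2 and 0. To look for pairs, the group mean of each gene was subtracted from its log2 CPM. What remained correlated between same-numbered NC and siCPT2 libraries at 0.25, 0.36 and 0.01 for replicates 1 to 3. The highest such correlation of each NC library with a siCPT2 library of another number was 0.004, -0.01 and 0.09. Replicates 1 and 2 were thus most like their own number, and replicate 3 was not. With this mixed result and no label that names pairs, the main fit did not take the numbers as pairs. Whether the libraries were paired remains unknown. The summed log2 fold change of the 10 genes, -0.15, was 0.24 with GC and length offsets and -0.42 on FPKM, and ranged from -0.29 to -0.05 with 1 library left out. That of ZNF320 with ZNF468, -0.29, was 0.14, -0.67 and, with library size alone, -0.42. Library size alone moved the median of all genes to -0.13, and log2(FPKM + 0.1) to -0.12. The causes were not tested. With 3 libraries a group, an exact test of a single value cannot go below p = 0.1, and the data hold gene totals without reads, so reads within the shared exons could not be followed.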
